A study of Mus musculus with 27 samples.

Results

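The 38 genes examined here belong to the cell cycle and to DNA replication: 14 act in mitotic entry and exit, 8 in replication licensing and at the fork, 4 in deoxynucleotide supply, 6 are G1 cyclins and kinases, 3 are inhibitors of cyclin-dependent kinases and 3 are transcription factors. They were taken by gene symbol from the deposited tables without a cut on any measured value, but earlier results of these data were known when they were chosen. All 38 were found among the 17655 genes of the whole series.
In the adult liver most hepatocytes rest outside the cycle. When cells are pushed to divide, cyclin D with CDK4 releases E2F factors, which switch on the MCM helicase, PCNA and the enzymes that make deoxynucleotides, and later FOXM1 and its partners switch on CDK1, the B cyclins and the machinery of mitosis. p21, the product of *Cdkn1a*, blocks this course downstream of p53 and other stress signals.

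Whole liver of 27 mice was sequenced, with 3 mice in each of 9 groups, and every mouse was *Kdm5b* fl/fl. WT mice received an AAV with a control vector, KO mice AAV-CMV-Cre, which is not restricted to one cell type, and HepKO mice AAV8-TBG-Cre, in which a hepatocyte promoter drives Cre. Livers were taken on Western diet with alcohol (WDA, 8 weeks by the labels, where the study's methods describe a longer feeding) from both sexes of WT and KO and from HepKO females, and after resolution (Res, 4 weeks that followed 16 weeks of WDA and the vector) from both sexes of WT and KO. The study describes resolution as a chow diet with plain water that followed a surgical liver biopsy. In the labels the vector is named before the diet for WDA mice and after it for Res mice. The WDA and Res mice also come from separately numbered experiments. Where Res is set against WDA, the stage, diet, biopsy, vector timing, length of feeding and experiment therefore cannot be told apart. The labels used here give no age. Mouse numbers repeat between the experiments and pair no mice. The counts per liver summed to 14634602 to 19388251. Hepatocyte transcripts were abundant in every liver, with Alb at 54149 CPM or more. *Kdm5b* was 8.28 to 17.6 CPM in HepKO and 21.5 to 31.0 CPM in WT females on WDA, and after Res 10.6 to 13.04 CPM in KO against 16.6 to 17.8 CPM in WT females and 7.89 to 17.4 CPM in KO against 18.8 to 19.6 CPM in WT males. In KO WDA livers it was 14.4 to 24.3 CPM in females and 20.3 to 21.8 CPM in males, against 23.8 to 24.6 CPM in WT males, so KO mouse 1 of the WDA females lay in the WT range. CPM are counts divided by the TMM-scaled library total and set to a common total. In whole liver, fewer cells of a type and less RNA per cell cannot be told apart.

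The mitotic genes were close to the limit of detection. Of the 38 members, 8 had fewer than 10 counts in most livers: the B cyclins *Ccnb1* and *Ccnb2*, the kinases *Aurkb*, *Plk1* and *Bub1*, the anaphase activator *Cdc20*, cyclin E1 (*Ccne1*) and the transcription factor *Foxm1*. *Bub1* was the lowest of them, with a median of 2 counts and at least 10 counts in 2 of the 27 livers. Per length, on the authors' FPKM scale, the highest medians were those of the inhibitor *Cdkn1a* at 56.4 and the G1 kinase *Cdk4* at 22.5, followed by the sliding clamp *Pcna* at 20.3 and cyclin D1 (*Ccnd1*) at 10.4. The helicase subunits *Mcm2* to *Mcm6* had medians between 0.42 and 1.27 FPKM and *Mcm7* 4.84, while *Mcm10*, which helps to start the fork, had 6.34. The 14 mitotic members all had medians of 1.56 FPKM or less, that of *Mki67*, the gene of the proliferation marker Ki-67, being 0.21, and even *Mki67* had 14 to 212 and *Cdk1* 6 to 59 counts in a liver. Of the deoxynucleotide enzymes, *Tk1* had a median of 7.17 FPKM, *Rrm1* (the large subunit of ribonucleotide reductase) 2.38 and thymidylate synthase (*Tyms*) 1.67. Cyclin D2 (*Ccnd2*) had 1.39 FPKM, the kinase *Cdk2* 3.97, and the inhibitors p18 (*Cdkn2c*) and p27 (*Cdkn1b*) 7.55 and 6.55. Between 28 and 35 of the 38 members passed the count filter in a given comparison. A member could pass solely through the group where it was high. Counts of directions among tested members are therefore not independent of the filter. Reads of *Cdk4* and *Tk1* (thymidine kinase) are uncertain, because their loci overlap Tspan31 and Afmid, both of which are expressed in liver, and whether the counting used strand is not given in the sources used here. *Ccna2*, *Aurka*, *Cdc20*, *Mcm7*, *Ccnd1*, *Ccne2*, *Cdk2*, *Foxm1* and *E2f1* each overlap a protein-coding neighbour too. *Top2a*, *Ccnd2* and *E2f8* overlap only genes that are not protein-coding. *Cdkn1a*, *Mcm10*, *Rrm2*, *Cdk1* and *Mki67* overlap none.

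The promoters of 4 members are shown because they carry the motifs by which cell cycle genes are usually grouped. Of the 38 members, 31 had a RefSeq promoter (GRCm38.p6, 250 bases before to 50 after the start), and *Ccna2*, *Aurkb*, *Mcm4*, *Foxm1*, *Ccnd1*, *Ccnd2* and *Ccne2* had none in the table. The sequences are the 150 bases before the start on the gene's own strand. Capitals mark the cell cycle homology region TTTGAA (CHR), the CCAAT box, the E2F letters TTT followed by CC, GG, CG or GC and then CGC, and a pair of CATG with 6 bases between them, as in the core of a p53 element, all searched on both strands. *Cdk1*, the kinase that starts mitosis, lies at chr10:69352913-69353062 on the minus strand. *Cdc20*, which activates the anaphase ligase, lies at chr4:118437344-118437493 on the minus strand, *Mcm6*, a helicase subunit, at chr1:128359706-128359855 on the minus strand, and *Cdkn1a*, in front of its upstream start, at chr17:29090829-29090978 on the plus strand.
Cdk1: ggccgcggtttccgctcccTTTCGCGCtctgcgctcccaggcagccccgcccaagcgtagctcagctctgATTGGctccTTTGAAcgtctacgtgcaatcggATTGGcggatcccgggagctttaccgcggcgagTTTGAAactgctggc
Cdc20: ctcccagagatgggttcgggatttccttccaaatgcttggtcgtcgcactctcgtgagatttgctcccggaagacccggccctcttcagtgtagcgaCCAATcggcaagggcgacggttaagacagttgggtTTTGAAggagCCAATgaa
Mcm6: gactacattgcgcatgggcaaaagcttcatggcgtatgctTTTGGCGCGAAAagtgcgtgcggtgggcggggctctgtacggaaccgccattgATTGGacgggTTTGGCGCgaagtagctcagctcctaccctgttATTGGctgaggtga
Cdkn1a: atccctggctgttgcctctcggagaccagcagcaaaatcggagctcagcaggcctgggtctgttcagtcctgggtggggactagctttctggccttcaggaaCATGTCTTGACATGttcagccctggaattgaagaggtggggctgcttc
The CHR letters were found in 9 of the 12 mitotic members with a promoter (75%) and in 20.2% of the 27025 genes with a promoter, a gene counting once over its promoters. CCAAT boxes were found in 11 of these 12 and in 7 of 7 licensing and fork members, against 41.1% of all these genes. The E2F letters were found in 4 of the 5 *Mcm2* to *Mcm7* genes with a promoter (*Mcm3*, *Mcm5*, *Mcm6* and *Mcm7*), in *Cdk1* and in *Cdk2*, and in 2.6% of all these genes. The tandem CATG cores were found in *Cdkn1a* alone among the 31 members and in 0.833% of all these genes, and these letters were chosen with the known p53 control of *Cdkn1a* in view. In *Mcm6* an E2F match on each strand overlaps the other. These matches describe letters in a window and are no evidence of binding.

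**Figure D1:**
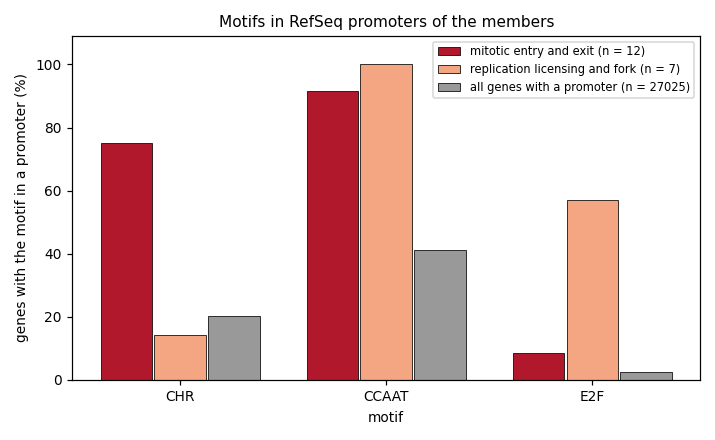
Share of genes (%, vertical axis) with a promoter that holds the CHR, CCAAT or E2F letters, for the 12 mitotic members, the 7 licensing and fork members and all 27025 genes of the RefSeq promoter table. The CHR bar is highest for the mitotic members at 75%, the CCAAT bars of both member groups stand above the 41.1% of all genes, and the E2F bar is highest for the licensing and fork members at 57.1%.

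Before any groups were compared, 2 livers stood apart in these genes. WT WDA female mouse 7 had the highest value of its group for 33 of the 38 members, among them all 14 mitotic genes. The summed mitotic CPM was 34.5 in this liver against 9.54 and 13.1 in the other WT WDA females. KO WDA male mouse 17 was the highest of its group for 26 members and for 13 of the 14 mitotic genes, with a mitotic sum of 27.1 CPM against 11.5 and 10.9 in the other KO WDA males. Over the other 25 livers the sum ran from 6.75 to 17.7 CPM. The share of all genes for which mice 7 and 17 were highest was not counted. Both livers stood apart beyond these members, with TMM factors of 1.37 and 1.32 and at least 10 counts in 13286 and 13459 genes. In the other mice of their groups the factors were 0.90 to 0.99, with 12145 to 12432 such genes. *Mki67* was 1.25, 2.34 and 9.34 CPM in WT WDA females 5, 6 and 7, and 2.62, 6.91 and 2.22 CPM in KO WDA males 16, 17 and 18. Topoisomerase *Top2a*, which untangles chromosomes, was 0.894, 1.33 and 3.44 CPM and 1.34, 3.35 and 1.14 CPM in the same mice. Both proliferation markers were thus high in 1 liver of each group and like the rest of the series in the others. The same livers were high in cyclin B1 (*Ccnb1*, 0.716, 0.612 and 2.16 CPM and 0.349, 1.17 and 0.180 CPM), in *Cdk1* (0.596, 0.946 and 2.60 CPM and 1.05, 2.09 and 0.360 CPM) and in *Foxm1* (0.596, 0.445 and 1.54 CPM and 0.291, 1.47 and 0.300 CPM).
Replication genes did not follow in the same way. *Mcm2* to *Mcm7* summed to 47.4 CPM in WT WDA female 7 against 21.4 and 22.3 CPM in the others, with *Mcm6* at 3.88 times the mean of the others. In KO WDA males the sums were 49.8 CPM in mouse 16, 41.7 CPM in mouse 17 and 24.5 CPM in mouse 18. The helicase sum of mouse 16 was thus as high as that of mouse 7, with *Mcm2* at 9.66 CPM and *Mcm5* at 4.02 CPM. *Mcm6* and *Mcm7* were lower in mouse 16, at 6.52 and 11.1 CPM against 9.92 and 14.7 CPM in mouse 7. The mitotic sum of mouse 16, 11.5 CPM, lay inside the range of the other livers. *Mcm2* in the other KO WDA males was 6.16 and 2.94 CPM. *Mcm10*, *Tk1* and *E2f8* went the other way in both mouse 7 and mouse 17, where they were the lowest of the group. *Mcm10* stood at 0.552 and 0.250 times the mean of the other mice of the group, *Tk1* at 0.499 and 0.443 times, and *E2f8*, a repressor of E2F target genes, at 0.227 and 0.315 times.

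**Figure D2:**
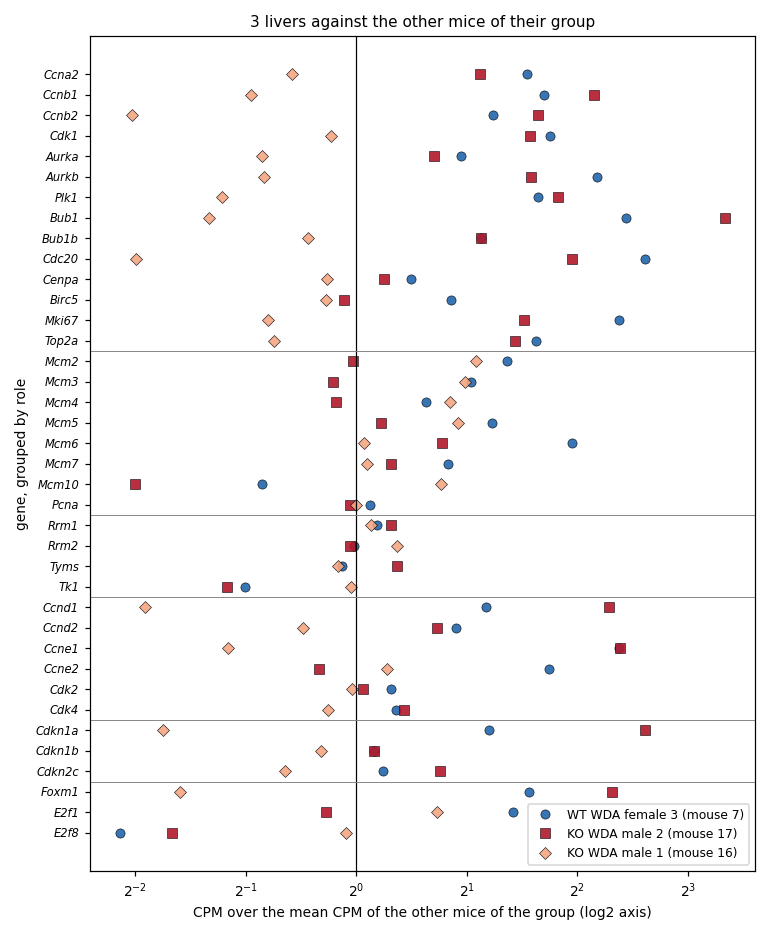
CPM of each member (vertical axis, grouped by role) in 3 livers, as a ratio to the mean of the other mice of the same group (horizontal log2 axis, 1 marks no difference). WT WDA female 7 and KO WDA male 17 lie to the right of 1 for nearly all mitotic genes and to the left for Mcm10, Tk1 and E2f8. KO WDA male 16 lies to the right for Mcm2 to Mcm5, and its ratios have mouse 17 in the mean they are set against.

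Markers of some other cells moved with these members. The summed CPM of 8 cholangiocyte markers was 477 in WT WDA female 7 and 545 in KO WDA male 17, and 247, 163 and 208 in WT Res female 13, WT Res male 9 and KO Res male 5. In the other 22 livers it ran from 17.2 to 108 CPM. Spp1, which macrophages can express as well, made up most of the sum and reached 474 CPM, while Krt19 reached 6.99 CPM and was at 0 in 1 liver. The 8 macrophage markers summed to 1008 CPM in mouse 7 and 714 CPM in mouse 17, against 144 to 435 CPM elsewhere, and the 10 stellate cell and fibroblast markers to 745 and 878 CPM against 191 to 583 CPM. All 3 sums were thus highest in the livers with the highest mitotic sums. Neutrophil and B and plasma cell sums were also the highest of their groups in both. Hepatocyte sums (78386 and 83475 CPM), erythroid sums (29.0 and 47.8 CPM) and endothelial sums (184 and 182 CPM) were the lowest of their groups in mice 7 and 17. Kupffer cell and T and NK cell sums took no common side. The part of all these sums in the mitotic levels was not tested. Krt7 and Cldn4 were each at 0 in 1 liver and Cftr in 7, whereas no macrophage marker was at 0 in any liver. In the 3 Res livers with high cholangiocyte sums the mitotic sums were 12.2, 13.5 and 17.7 CPM, the latter the third highest of the series. *E2f8* was the lowest of its group in all 5 of these livers.

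**Figure D3:**
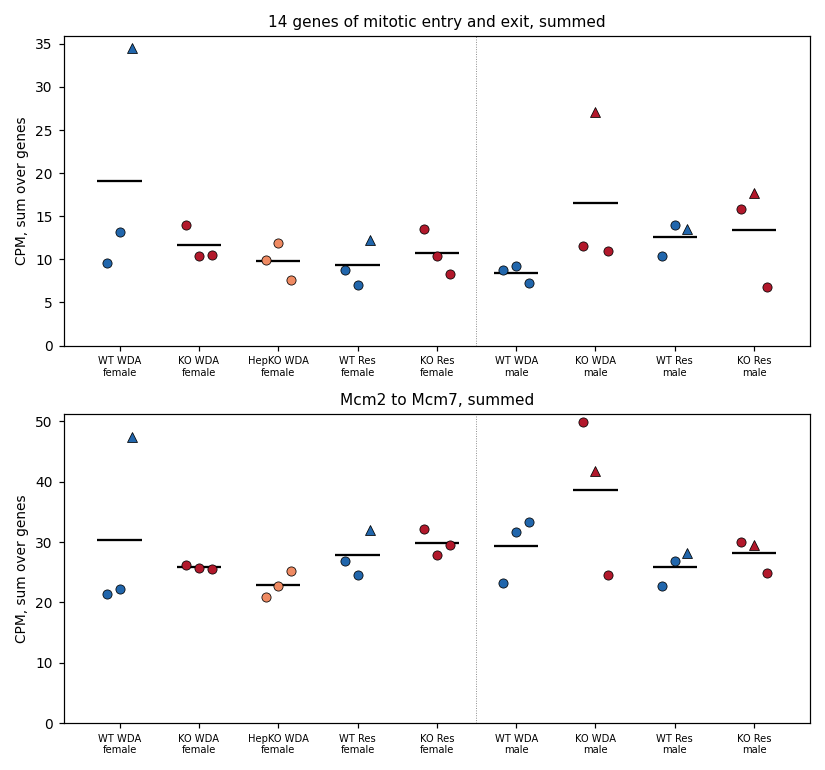
CPM summed over the 14 mitotic members (top) and over Mcm2 to Mcm7 (bottom) for each of the 27 mice, with a line at the mean of each group of 3, WT in blue, KO in red and HepKO in orange. Triangles mark the 5 livers with high cholangiocyte marker sums. The mitotic sum is 34.5 and 27.1 in 2 of these and at most 17.7 in any other liver, and the helicase sum of KO WDA male 16, a circle, is the highest of the series at 49.8.

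Resolution was compared with WDA first in WT males. Of 29 members tested, 4 passed an adjusted p of 0.05 in edgeR's quasi-likelihood test (Benjamini-Hochberg adjusted), against 11% of all 12408 genes tested. *Cdkn1a*, *Cdk1* and *Rrm2*, the small subunit of ribonucleotide reductase, rose and *Mcm10* fell, where 4.99% of all genes rose and 5.98% fell. The WT Res and WT WDA males did not overlap for 11 members, against 35.8% of all genes. The median log2 fold change was -0.04 over the members tested and 0.02 over all genes, so the members as a group did not shift to one side. By role they differed: 6 of 7 mitotic members tested had higher values after Res, with a median of 0.59, and 7 of 8 licensing and fork members had lower values, with a median of -0.40. With library totals in place of scaling factors, 5 of these 8 were lower and the median was -0.25. *Cdk1*, with 6, 6 and 10 counts on WDA and 26, 21 and 28 after Res, could pass the count filter through Res alone. The directions of the mitotic members are therefore not independent of the filter.
*Cdkn1a* (chromosome 17, 29090979 to 29100722) was 12.0, 8.36 and 5.12 CPM in WT males on WDA and 79.4, 46.8 and 129 CPM after Res. The lowest Res male was over the highest WDA male, and the log2 fold change was 3.34 (SE 0.43, adjusted p = 0.00636, edgeR). This was the largest change of any tested member in the 10 comparisons between single groups. *Mcm10* (chromosome 2, 4990724 to 5012791) went the other way. It was 67.4, 65.6 and 63.7 CPM on WDA and 20.8, 23.4 and 19.3 CPM after Res, with no overlap. Its log2 fold change was -1.62 (SE 0.09, adjusted p = 0.000369, edgeR).
*Rrm2* (chromosome 12, 24708254 to 24714146) rose from 2.94, 2.44 and 2.68 CPM to 6.51, 6.11 and 4.43 CPM, a log2 fold change of 1.08 (SE 0.20, adjusted p = 0.0188, edgeR). *Cdk1* (chromosome 10, 69335146 to 69352912) rose from 0.361, 0.366 and 0.624 CPM to 1.64, 1.25 and 1.48 CPM, or from 6, 6 and 10 counts to 26, 21 and 28 counts. Its log2 fold change was 1.69 (SE 0.34, adjusted p = 0.0231, edgeR). Neither gene overlapped between the groups. The call of *Cdk1* rests on few counts and was lost in 5 of the 6 fits that left out 1 mouse (without WDA mouse 19, 20 or 21 or Res mouse 7 or 8), and that of *Rrm2* in 4 of them (without WDA mouse 19, 20 or 21 or Res mouse 8). Other mitotic members that were tested did not pass. *Mcm2* was 4.03, 3.60 and 4.5 CPM on WDA and 2.59, 3.08 and 3.38 CPM after Res (log2 fold change -0.40, adjusted p = 0.217, edgeR). *Mki67* was 1.98, 2.02 and 1.31 CPM on WDA and 1.77, 3.44 and 2.69 CPM after Res (log2 fold change 0.59, adjusted p = 0.244, edgeR).
In the same comparison 2 of 8 macrophage markers, 3 of 7 tested T and NK cell markers, 2 of 2 tested neutrophil markers, 1 of 4 tested cholangiocyte markers and 1 of 6 endothelial markers rose, and 1 T and NK cell marker fell. The macrophage sums were 190 to 234 CPM on WDA and 300.4 to 371 CPM after Res, and the T and NK cell sums 6.62 to 8.67 CPM and 7.07 to 10.7 CPM. The endothelial list went mostly the other way, since 4 of its 6 markers, called or not, had lower values after Res (median log2 fold change -0.26). The part of all these markers in the changes of the members was not tested.

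WT females gave 0 calls among the 33 members tested in edgeR's quasi-likelihood test (Benjamini-Hochberg adjusted), where 0% of all genes passed. An unadjusted p under 0.05 was reached by 5 members against 13.6% of all genes, and DESeq2 called *Ccnd1* against 3.21% of all genes. The groups did not overlap for 7 members, against 20.3% of all genes. All 10 mitotic members tested had lower values after Res, with a median log2 fold change of -0.96 against -0.02 over all genes. Without mouse 7, 6 of the 10 were lower and the median was -0.34, and over the 33 members the median went from -0.35 to 0.04. *Ccnb1*, with 12, 11 and 49 counts on WDA and 3, 3 and 7 after Res, could pass the count filter through WDA alone. These directions are therefore not independent of the filter. *Cdkn1a* was 62.7, 33.4 and 111 CPM on WDA and 130.2, 103 and 113 CPM after Res. The groups overlapped, since mouse 7 had the highest WDA value, and the log2 fold change was 0.72 (SE 0.41, adjusted p = 0.486, edgeR). *Rrm2* was 3.28, 3.17 and 3.17 CPM on WDA and 5.92, 4.08 and 4.25 CPM after Res, with no overlap and a log2 fold change of 0.55 (SE 0.25, adjusted p = 0.401, edgeR). *Mcm10* was 25.4, 21.7 and 13 CPM on WDA and 13.3, 9.11 and 11.0 CPM after Res, and Res mouse 1 lay above WDA mouse 7.
With the sexes combined and sex as a covariate, 4 of 35 members passed in WT mice, against 10.3% of all genes in edgeR's quasi-likelihood test. *Cdkn1a* (log2 fold change 1.98, SE 0.52, adjusted p = 0.0335, edgeR) and *Rrm2* (0.82, SE 0.17, adjusted p = 0.0127) rose, where 4.69% of all genes rose. *Mcm10* (-1.25, SE 0.19, adjusted p = 0.00420, edgeR) and *Ccnd1* (-1.36, SE 0.34, adjusted p = 0.0289) fell, where 5.57% of all genes fell. The combined comparison holds the same mice as the single-sex comparisons. The difference between the sexes in the effect of Res was tested as an interaction and gave 0 of 35 members in edgeR (0.0076% of all genes), 6 members at an unadjusted p under 0.05 (7.71% of all genes) and *Cdkn1a* in DESeq2 (0.639% of all genes). For *Cdkn1a* the male effect exceeded the female effect by 2.59 on the log2 scale (SE 0.65, adjusted p = 0.345, edgeR).

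Cyclin D1 couples growth signals to CDK4. *Ccnd1* (chromosome 7, 144929931 to 144939831) was 83.3, 78.9 and 182 CPM in WT females on WDA and 26.1, 33.8 and 43.8 CPM after Res, and these groups did not overlap. The log2 fold change was -1.75 (SE 0.39) and its adjusted p of 0.214 in edgeR did not pass. WT males had 34.0, 15.1 and 20.4 CPM on WDA and 7.65, 7.36 and 20.8 CPM after Res, where WT Res male 9, one of the livers with high cholangiocyte markers, had the highest Res value (log2 fold change -0.93, SE 0.45, adjusted p = 0.204, edgeR). Without WT Res male 9 the log2 fold change was -1.62 and passed (adjusted p = 0.0108, edgeR). Over the series *Ccnd1* was highest in KO WDA male 17 at 198 CPM and in WT WDA female 7 at 182 CPM.

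In KO females 4 of 28 members passed between WDA and Res in edgeR's quasi-likelihood test (Benjamini-Hochberg adjusted), against 20.4% of all 12470 genes. *Cdkn1a*, *Rrm2* and *Tk1* rose and *Ccnd1* fell, where 10.2% of all genes rose and 10.2% fell, and the groups did not overlap for 7 members against 40.5% of all genes. The share of members called was thus no higher than the background. With the spread of all 9 groups only the call of *Rrm2* was kept (adjusted p of *Cdkn1a* = 0.133, edgeR). *Cdkn1a* was 109.8, 85.8 and 84.1 CPM in KO females on WDA and 203, 209.8 and 239.9 CPM after Res, the highest values of the series, with a log2 fold change of 1.24 (SE 0.13, adjusted p = 0.000883, edgeR). *Rrm2* was 3.98, 4.19 and 3.32 CPM on WDA and 8.55, 6.32 and 7.30 CPM after Res, where KO Res mice 2 and 4 had the 2 highest values of the series (log2 fold change 0.97, SE 0.19, adjusted p = 0.00855, edgeR). Neither gene overlapped between the stages.
*Tk1*, which salvages thymidine and whose locus overlaps Afmid, was 3.86, 7.06 and 6.69 CPM on WDA and 9.01, 13.3 and 11.3 CPM after Res (log2 fold change 0.95, SE 0.24, adjusted p = 0.0225, edgeR). *Ccnd1* was 104, 59.8 and 59.0 CPM on WDA and 36.6, 40.0 and 16.8 CPM after Res (log2 fold change -1.23, SE 0.31, adjusted p = 0.0238, edgeR). Neither overlapped, and the *Tk1* groups were separated by the step from 7.06 to 9.01 CPM. The call of *Tk1* was lost without KO Res mouse 3 (adjusted p = 0.0754, edgeR) or 4 (0.0706), and that of *Ccnd1* without KO WDA mouse 1 (0.0501) or KO Res mouse 4 (0.0525). *Mcm10* was 14.4, 15.2 and 40.7 CPM on WDA, with KO mouse 3 far above the others, and 9.01, 12.5 and 11.7 CPM after Res (log2 fold change -1.06, SE 0.36, adjusted p = 0.0641, edgeR). In this comparison 4 of 8 macrophage, 2 of 3 tested neutrophil, 3 of 8 hepatocyte, 2 of 5 Kupffer cell and 2 of 5 tested B and plasma cell markers rose, with macrophage sums of 174 to 225 CPM on WDA and 233 to 323 CPM after Res and neutrophil sums of 1.43 to 5.61 CPM and 6.37 to 20.3 CPM. The hepatocyte sums were 94591 to 119182 CPM on WDA and 149831 to 177216 CPM after Res and did not overlap, the Kupffer cell sums 260.0 to 373 and 347 to 493 CPM, and the B and plasma cell sums 3.97 to 6.37 and 7.69 to 12.5 CPM. Their part in the members' changes was not tested.
KO males gave 0 of 31 members in edgeR (0% of all genes), 4 members at an unadjusted p under 0.05 (6.43% of all genes) and 0 in DESeq2 (0.62% of all genes). *Cdkn1a* was 12.5, 72.4 and 11.2 CPM on WDA and 74.2, 94.5 and 41.3 CPM after Res. Only mouse 17 on WDA reached the Res values, and the log2 fold change went from 1.12 (SE 0.71, adjusted p = 0.796, edgeR) to 2.55 without that mouse. *Mcm10* was 67.3, 16.3 and 63.2 CPM on WDA and 17.6, 15.5 and 30.7 CPM after Res, and again mouse 17 alone of the WDA males lay among the Res values (log2 fold change -1.21, SE 0.52, adjusted p = 0.764, edgeR). *Rrm2* was 2.74, 2.26 and 1.98 CPM on WDA and 4.13, 4.07 and 2.83 CPM after Res, with no overlap (log2 fold change 0.65, SE 0.29, adjusted p = 0.773, edgeR). *Ccnd1* was 32.8, 198 and 48.3 CPM on WDA and 23.3, 32.5 and 11.2 CPM after Res (log2 fold change -2.06, SE 0.70, adjusted p = 0.682, edgeR). The lowest WDA and the highest Res value of *Ccnd1* nearly met.

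**Figure D4:**
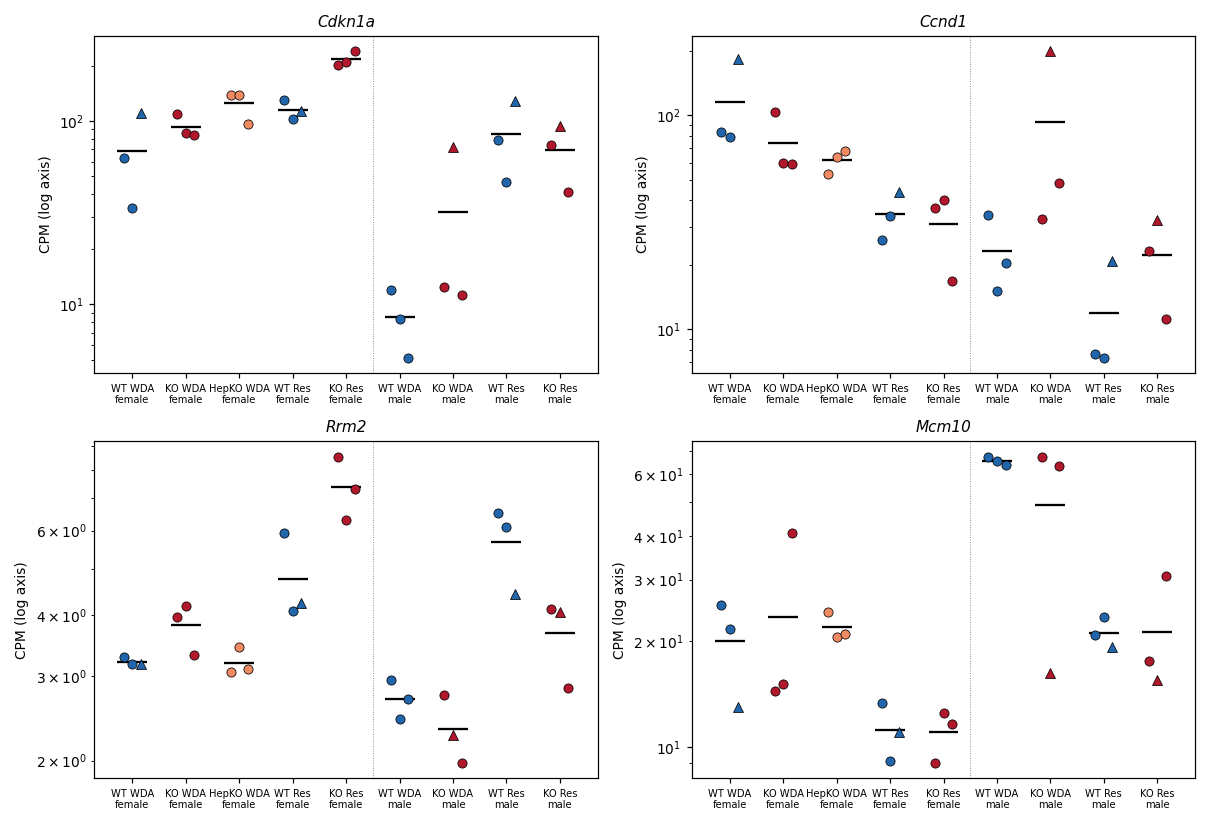
CPM on a log axis of Cdkn1a, Ccnd1, Rrm2 and Mcm10 in each of the 27 mice, with a line at each group mean and triangles for the 5 livers with high cholangiocyte marker sums. Cdkn1a is lowest in WDA males apart from KO mouse 17 at 72.4, 2 KO Res females hold the highest Rrm2 values at 8.55 and 7.30, and Mcm10 is highest in WDA males apart from the same mouse 17 at 16.3.

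Within each stage KO was compared with WT, and no member passed in these comparisons in edgeR. After Res, females gave 0 of 29 members in edgeR's quasi-likelihood test (Benjamini-Hochberg adjusted) (0% of all genes). An unadjusted p under 0.05 was reached by 4 members against 19.2% of all genes, and DESeq2 called *Cdkn1a* against 5.04% of all genes. Without WT Res mouse 1 the calls in edgeR over all genes went from 0 to 852 and those among the members from 0 to 1, and with the spread of all 9 groups they were 669 over all genes and 1 among the members (*Rrm2*). The groups did not overlap for 6 members, against 25.7% of all genes: *Mcm2*, *Mcm3*, *Pcna*, *Rrm2* and *Cdkn1a* were higher in KO and cyclin E2 (*Ccne2*) was lower. *Cdkn1a* was 130.2, 103 and 113 CPM in WT and 203, 209.8 and 239.9 CPM in KO females, or 115 ± 13.8 against 218 ± 19.7 CPM (SD, n = 3). All 3 KO values were over all 3 WT values, and the log2 fold change was 0.90 (SE 0.14, adjusted p = 0.0794, edgeR). *Rrm2* was 5.92, 4.08 and 4.25 CPM in WT and 8.55, 6.32 and 7.30 CPM in KO females (log2 fold change 0.63, SE 0.22, adjusted p = 0.182, edgeR). Here WT mouse 1 with 5.92 CPM came close to the lowest KO mouse with 6.32 CPM.
*Pcna* was 20.9, 21.8 and 20.4 CPM in WT and 24.3, 23.6 and 29.0 CPM in KO females (log2 fold change 0.27, adjusted p = 0.258, edgeR). *Mcm2* was 2.48, 1.21 and 2.31 CPM in WT and 3.93, 3.16 and 3.40 CPM in KO females (log2 fold change 0.79, adjusted p = 0.240, edgeR). *Ccne2* was 1.01, 0.938 and 0.897 CPM in WT and 0.809, 0.632 and 0.446 CPM in KO females (log2 fold change -0.60, adjusted p = 0.401, edgeR). None of these differences passed, and they are smaller than 1 on the log2 scale. *Mki67* was 1.30, 1.82 and 2.46 CPM in WT and 3.23, 2.35 and 1.28 CPM in KO females, with full overlap. The members' median log2 fold change was -0.02, as over all genes, and 0.22 with the livers of high cholangiocyte markers left out.
Males after Res gave 0 of 31 members in edgeR (0% of all genes), 1 member at an unadjusted p under 0.05 (1.45% of all genes) and 0 in DESeq2 (0.0555% of all genes). That member was *Rrm2*, at 6.51, 6.11 and 4.43 CPM in WT and 4.13, 4.07 and 2.83 CPM in KO males (log2 fold change -0.62, SE 0.25, adjusted p = 0.9997, edgeR). It was lower in all 3 KO males, whereas it was higher in all 3 KO females. Among males after Res the groups did not overlap for 4 of the 31 members, against 4.67% of all genes. *Cdkn1a* was 79.4, 46.8 and 129 CPM in WT and 74.2, 94.5 and 41.3 CPM in KO males, with full overlap (log2 fold change -0.28, adjusted p = 0.9997, edgeR). *Mki67* ranged from 1.02 to 5.39 CPM among KO Res males and from 1.77 to 3.44 CPM among WT Res males. KO Res male 6 was the lowest of its group for 27 of 38 members, among them 12 of the 14 mitotic genes. The share of all genes for which it was lowest was not counted. KO Res male 5 held more Cyp2b9 and Cyp3a44, transcripts typical of female liver, than the other Res males. The interaction of KO with sex after Res gave 0 of 33 members in edgeR (0% of all genes), 4 at an unadjusted p under 0.05 (11.5% of all genes) and 0 in DESeq2 (0.645% of all genes). With both sexes combined 0 of 33 passed in edgeR (0% of all genes), with 1 at an unadjusted p under 0.05 (7.85% of all genes) and 0 in DESeq2 (0.0455% of all genes).

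On WDA, WT female 7 and KO male 17 fall on opposite sides of the KO comparison. In females 0 of 33 members passed in edgeR (0% of all genes), 0 had an unadjusted p under 0.05 (3.11% of all genes) and DESeq2 called 0 (0.0645% of all genes). All 11 mitotic members tested were lower in KO at a median of -0.91 on the log2 scale against -0.02 over all genes, but without WT mouse 7 the median was -0.09 and 4 of 11 were higher. *Ccnb1*, with 12, 11 and 49 counts in WT and 11, 8 and 7 in KO females, could pass the count filter through WT alone. *Mki67* was 2.92, 1.93 and 1.75 CPM in KO females, within the range of WT females 5 and 6 apart from KO mouse 1. In males 0 of 29 members passed in edgeR (0% of all genes), 8 had an unadjusted p under 0.05 (7.71% of all genes) and DESeq2 called 0 (0.137% of all genes). The groups did not overlap for 7 members, all higher in KO, against 16.7% of all genes: *Ccna2*, *Cenpa*, *Mki67*, *Top2a*, *Ccnd2*, *Ccne2* and *Cdk2*. Of the 29 members, 25 had higher values in KO males (median log2 fold change 0.33), and without mouse 17 the number was again 25 of 29 (median 0.22). *Ccna2*, with 5, 14 and 6 counts in WT and 17, 49 and 15 in KO males, could pass the filter through KO alone. Cyclin A2 (*Ccna2*), the S and G2 phase partner of CDK2 and CDK1, was 0.300, 0.855 and 0.375 CPM in WT and 0.990, 2.05 and 0.900 CPM in KO males (log2 fold change 1.4, SE 0.55, adjusted p = 0.588, edgeR). *Mki67* was 1.98, 2.02 and 1.31 CPM in WT and 2.62, 6.91 and 2.22 CPM in KO males. For both genes KO males 16 and 18 were close to the highest WT male, and mouse 17 was far above. Of 8 macrophage markers 8, and of 7 tested cholangiocyte markers 7, had higher values in KO males, with sums of 258 to 714 and 24.8 to 545 CPM in KO against 190 to 234 and 22.5 to 74.2 CPM in WT males, and their part was not tested. A marker could pass the count filter through KO alone, so these directions are not independent of the filter. They were not counted without mouse 17. The combined comparison of both sexes gave 0 of 35 members in edgeR (0% of all genes), 1 at an unadjusted p under 0.05 (2.92% of all genes) and 0 in DESeq2 (0.031% of all genes). The interaction with sex gave 0 of 35 in edgeR (0% of all genes), 9 at an unadjusted p under 0.05 (11.4% of all genes) and 0 in DESeq2 (0.0775% of all genes).

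HepKO females were compared with WT females on WDA, the same 3 WT mice as above. No member of 32 passed in edgeR (0% of all genes), 4 had an unadjusted p under 0.05 (10.1% of all genes) and DESeq2 called 0 (1.85% of all genes). *Cdkn1a* was 139, 139 and 96.2 CPM in HepKO females, with 1 mouse below the 111 CPM of WT mouse 7 (log2 fold change 0.83, SE 0.42, adjusted p = 0.557, edgeR). Without mouse 7 the log2 fold change was 1.38 and passed (adjusted p = 0.0273, edgeR), as the only member called, while the calls over all genes went from 0 to 349. *Ccnd1* was 53.1, 63.5 and 67.8 CPM, below all WT females (log2 fold change -0.93, SE 0.35, adjusted p = 0.466, edgeR). The groups did not overlap for 6 members, all lower in HepKO, against 18.6% of all genes: *Aurka*, *Mcm4*, *Mcm5*, *Ccnd1*, *Ccnd2* and *Cdk4*. All 9 mitotic members tested had lower values, with a median of -0.95 that became -0.18 without WT mouse 7. *Ccnb1*, with 12, 11 and 49 counts in WT and 3, 11 and 7 in HepKO females, could pass the count filter through WT alone. Against KO females on WDA, 0 of 29 members passed in edgeR (0.0162% of all genes), 3 had an unadjusted p under 0.05 (5.74% of all genes) and DESeq2 called 0 (0.308% of all genes).

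**Figure D5:**
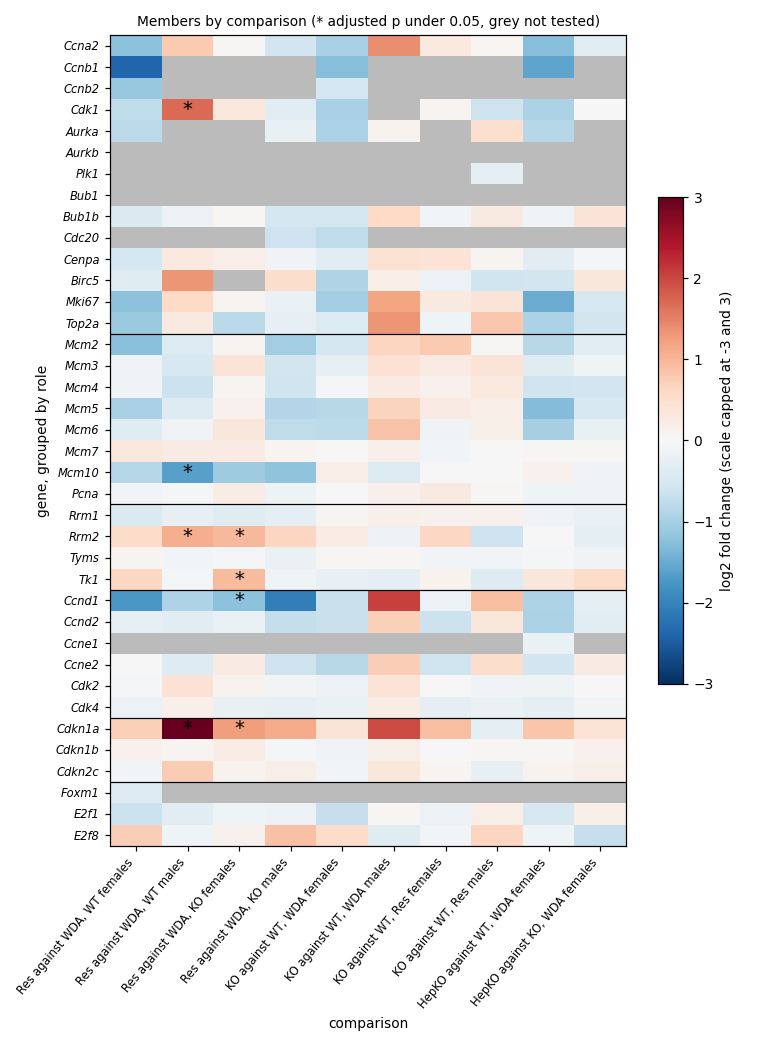
Log2 fold change of each member (vertical axis, grouped by role) in the 10 comparisons of single groups (horizontal axis), with the color scale capped at -3 and 3. Asterisks mark the 8 cells with an adjusted p under 0.05 in edgeR and grey marks members below the count filter. The asterisks lie in Res against WDA in WT males and in KO females, and every tested mitotic member is below 0 in the 3 comparisons that have WT WDA female 7 on the reference side. The filter could admit a member solely through the group where it was high.

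WT males on WDA were compared with WT females on WDA, and 1 of 31 members passed in edgeR's quasi-likelihood test (Benjamini-Hochberg adjusted), against 0.851% of all 12333 genes. *Mcm10*, at 67.4, 65.6 and 63.7 CPM in males and 25.4, 21.7 and 13 CPM in females, was higher in males (log2 fold change 1.71, SE 0.23, adjusted p = 0.0342, edgeR). The sexes did not overlap for 10 members, against 24.2% of all genes. Among them *Cdkn1a* was lower in males by a log2 fold change of -3.03 (SE 0.52, adjusted p = 0.0646, edgeR) and *Ccnd1* by a log2 fold change of -2.32 (SE 0.45, adjusted p = 0.0893, edgeR). Without WT female 7 the calls were 5 (*Mcm10*, *Ccnd1*, *Cdkn1a*, *Cdkn2c* and *E2f1*), and the call of *Mcm10* was lost without any 1 of the other 5 mice. After Res 0 of 29 members passed in edgeR (0.545% of all genes), 3 had an unadjusted p under 0.05 (9.03% of all genes) and DESeq2 called *Mcm10* and *Ccnd1* (2.13% of all genes). *Mcm10* was 20.8, 23.4 and 19.3 CPM in WT Res males and 13.3, 9.11 and 11.0 CPM in WT Res females, still without overlap (log2 fold change 0.93, SE 0.17, adjusted p = 0.0679, edgeR). These comparisons share their mice with the comparisons of Res with WDA.

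On the TMM-scaled CPM some members varied little across the 27 livers. The clamp *Pcna* ran from 17.6 to 29.0 CPM, and the inhibitor p27 (*Cdkn1b*) from 12.2 to 17.1 CPM. *Cdk4* ran from 18.5 to 36.1 CPM, *Rrm1* from 7.001 to 14.4 CPM, *Tyms* from 4.25 to 7.83 CPM and *Mcm7* from 8.12 to 14.7 CPM. On the authors' FPKM scale *Pcna* ran from 15.3 to 31.3 and *Cdk4* from 15.9 to 42.0, both highest in WT WDA female 7. Others varied more. *E2f1*, the activator of S phase genes, was 1.19, 0.890 and 2.78 CPM in WT WDA females and 2.46, 2.44 and 2.44 CPM in WT WDA males, and ran from 0.70 to 3.44 CPM over all livers. *E2f8* ran from 0.84 to 9.22 CPM, both extremes being WT females. *Ccne2* ran from 0.23 to 1.72 CPM, and *Foxm1* from 0.06 to 1.54 CPM. None of *E2f1*, *E2f8*, *Ccne2* and *Foxm1* passed in any of the 18 comparisons in edgeR with all mice.

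Other genes of the same pathways were counted for comparison with the members. In WT males after Res, 2 of 38 tested S phase genes that are no members rose and 0 fell in edgeR, 4 of 28 tested mitotic genes rose and 0 fell, and 1 of 21 G1 genes rose and 1 fell, with list medians of -0.08, 0.22 and 0.14 on the log2 scale against 0.02 over all genes, of which 4.99% rose and 5.98% fell. In KO females after Res, 6 of 37 S phase genes rose and 1 fell, 2 of 29 mitotic genes rose and 1 fell, and 5 of 21 G1 genes rose and 1 fell, with medians of 0.04, 0.02 and 0.15 against 0.01 over all genes, of which 10.2% rose and 10.2% fell. Targets of p53, a list that holds *Cdkn1a*, rose in 3 of 17 tested in WT males and 6 of 19 in KO females, and 0 fell in either. Called or not, 15 of these 17 had higher values after Res in WT males, with a median of 0.39 against 0.02 over all genes. In KO females 12 of the 19 did, with a median of 0.15 against 0.01 over all genes. Summed without *Cdkn1a*, the other 18 p53 targets gave 373, 312 and 368 CPM in WT WDA males and 351, 331 and 444 CPM in WT Res males, with overlap. In KO females the sums were 446, 368 and 620.0 CPM on WDA and 525, 559.7 and 616 CPM after Res, where KO WDA mouse 3 was the highest of all 6. The stages overlapped in these sums and not in *Cdkn1a*, while most targets tested had higher values after Res. A sum weighs abundant genes most. Between KO and WT females after Res neither overlapped, since the sums were 459.9, 470.3 and 449 CPM in WT and higher in all 3 KO females. In the comparisons of KO with WT within a stage 0% of all genes passed in edgeR, so none of these lists could hold a call.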

How the data were processed

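RNA from whole liver of 27 mice was sequenced by BGI, and the authors used HISAT for alignment to the genome (GRCm38.p6) and Bowtie2 for alignment to the genes. The deposited tables hold estimated counts per gene and mouse, of which 7.34 to 8.09% were not whole numbers, and the tool that estimated them and its use of strand are not given in the sources used here. FPKM were deposited by the authors beside the counts and served here to compare levels between genes and to give the ranges of *Pcna* and *Cdk4* over the livers. The estimated counts were rounded to whole numbers. Groups followed the labels, and each of the 18 comparisons was fitted across all genes on its own groups with edgeR 4.0.16 (TMM scaling, filterByExpr with a minimum count of 10, quasi-likelihood test) in R 4.3.3. P-values were Benjamini-Hochberg adjusted over all genes tested, and a gene was called at an adjusted p under 0.05. The procedure was tested on simulated data. Totals of 14634602 to 19388251 counts per liver set the precision for rare transcripts. The members and gene lists were chosen with earlier results of these data known. Values per mouse were given for each member called, up to 6 in a comparison, and for *Mki67*, *Top2a*, *Ccnb1*, *Cdk1*, *Mcm2*, *Pcna*, *Rrm2*, *Ccnd1*, *Ccne2*, *Cdkn1a*, *E2f1*, *E2f8* and *Foxm1*. Other members named with values were added after their values were seen. Alternatives were RLE scaling, no filter, DESeq2 1.42.0, the spread of all 9 groups and each mouse left out. Library totals without scaling factors, and the 5 livers with high cholangiocyte markers left out (alone or with the spread of all 9 groups), were added after seeing the data.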

Additional observations from a re-analysis of the deposited data

Results flagged for a closer look

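*Rrm2*, the small subunit of ribonucleotide reductase, differed in direction between the sexes in KO against WT after Res. It was higher in all 3 KO females than in any WT female and lower in all 3 KO males than in any WT male. It was found by searching all members for this pattern. KO and WT did not overlap for 25.7% of all genes in Res females and 4.67% in Res males. The share of all genes apart in opposite directions was not counted. The male effect of *Rrm2* was below the female effect by -1.26 on the log2 scale (adjusted p = 0.265 in edgeR's test of the interaction, which did not pass). *Cenpa*, the centromeric histone, had a higher effect of Res in WT males than in WT females by 0.80 on the log2 scale (adjusted p = 0.670 in edgeR's test of the interaction, which did not pass). Its log2 fold change was 0.29 in males and -0.54 in females. *Cenpa* came from the same search, and Res and WDA did not overlap for 35.8% of all genes in WT males and 20.3% in WT females.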

How the results depend on the processing

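Of 268 recomputed counts of called members, 235 stayed within 1.5 times the reported count, and of 620 recomputed fold changes 545 kept their direction and their side of the threshold, 36 lost and 35 gained a call and 4 changed direction. The cause of these changes was not tested. DESeq2 called 1 member in Res against WDA in WT females, 1 in KO against WT in Res females, 1 for the difference between sexes in Res against WDA, 4 in males against females on WDA and 2 in males against females after Res. With the spread of all 9 groups the calls were 1 in Res against WDA in WT females (*Mcm2*), 1 in KO females (*Rrm2*), 1 in KO against WT in Res females (*Rrm2*) and 3 in males against females on WDA. Library totals left 2 in Res against WDA in WT mice of both sexes (*Mcm10* and *Rrm2*). Without the 5 livers with high cholangiocyte markers there was 1 call in HepKO against WT (*Cdkn1a*), 5 in males against females on WDA and 1 after Res (*Ccnd1*). With the spread of all 9 groups as well, there were 3 in Res against WDA in WT females (*Mcm7*, *Ccnd1* and *Cdkn1a*), 2 in KO males (*Mcm10* and *Cdkn1a*), 1 in HepKO against WT, 4 in males against females on WDA and 1 after Res.
Leaving out 1 mouse gave 2 to 5 calls in Res against WDA in WT males (2 without WDA mouse 19, 20 or 21 or Res mouse 8) and 2 to 5 in KO females (2 without KO Res mouse 4, *Rrm2* and *Cdkn1a*). It gave 2 to 5 in WT mice of both sexes (2 without Res male 7), 0 to 5 in males against females on WDA and 0 to 1 after Res (1 without Res male 9). It gave 0 to 1 in KO against WT in Res females (1 without WT mouse 1) and 0 to 1 in HepKO against WT (1 without WT mouse 7). *Mki67* in KO against WT on WDA in females changed direction from -1.03 on the log2 scale to 0.28 without WT mouse 7 and also without the 5 livers, and to 0.27 with the spread of all 9 groups as well, and over the fits without 1 mouse it ran from -1.46 to 0.28. *Cdkn1a* in KO against WT in Res males went from -0.28 to 0.16 without WT Res male 9, and ran from -0.58 to 0.16 over the fits without 1 mouse. Without WDA mouse 21 the calls over all genes in WT males fell from 1361 to 106. They rose from 0 to 852 in KO against WT in Res females without WT mouse 1 and from 0 to 349 in HepKO against WT without WT mouse 7. No paired analysis was possible because the replicate numbers only name the mice in accession order. With 3 mice a group and few reads in the mitotic genes, their fold changes carry wide errors.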
